A study of Mus musculus with 8 samples.

Results

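The ephrins, Slits and netrins are families of secreted or membrane-bound guidance cues, described here together with their receptors in the mouse retina at postnatal day 5. This group of genes was chosen with earlier results of these data known, and its members were found by gene symbol. The symbols sought were the Eph receptors and ephrins of classes A and B, the netrins and netrin-G proteins, and Slit1 to Slit3. Robo1 to Robo3, Unc5a, Unc5c, Unc5d, Dcc and Neo1 were sought likewise. The count table held 37 members among 16109 genes, and 36 passed the filter on low counts. The other was Epha1, with 1 to 16 reads per library. The series compares retinal gene expression between mice that carry complement C3 and mice that lack it. It holds 4 libraries labelled WT (wild type) and 4 labelled C3 KO, all from C57BL/6 mice at that age and all from retinas whose hyaloid vessels had been removed. The C3 allele, the number of retinas or animals behind a library and the sex of the animals are not given in the labels, so p-values measure the spread between these libraries, which may be technical.

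Total counts were 16503564 to 19608824 reads per library, of which the 37 guidance genes took 0.198% to 0.227%. C3, the targeted gene, had 33 to 55 reads in the libraries labelled WT and 1419 to 1718 in those labelled C3 KO, which goes against the label. Every direction below is therefore by label only, with "higher" and "lower" meaning the libraries labelled C3 KO against those labelled WT. The mean of 4 Y-linked genes was 74.8 to 88.2 CPM (read counts scaled to the size of the library) in the libraries labelled C3 KO. It was 0.448 to 5.05 CPM in WT replicates 1, 2 and 4, and 75.8 CPM in WT replicate 3. Xist, expressed from the inactive X chromosome, was at 2195 to 2441 CPM in WT replicates 1, 2 and 4 and at 295 CPM in WT replicate 3, against 1.48 to 2.65 CPM in the libraries labelled C3 KO. Xist thus differed by label in all 8 libraries, while WT replicate 3 held both Xist and Y-linked reads. Retinal markers were present: 11 of 11 photoreceptor, 15 of 15 ganglion cell and 10 of 10 Mueller glia and progenitor markers were tested.

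Eph receptors are receptor tyrosine kinases that bind ephrins on neighbouring cells. The A class binds mainly ephrin-A ligands, held to the membrane by a lipid anchor, and the B class binds mainly transmembrane ephrin-B ligands. In the retina both classes are graded across ganglion cells and help their axons to find the matching place in the brain. Slits are secreted repellents read by Robo receptors, and netrins attract axons through Dcc or repel them through Unc5 receptors. Ephrin-B2, Slits, Robos and netrins also act in growing vessels.

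Of the 36 tested guidance genes 6 were higher and 1 was lower under the C3 KO label at an edgeR adjusted p below 0.05. The higher genes were the receptors Epha10, Epha4, Epha5 and Epha6, the repellent Slit2 and the netrin-G protein Ntng1, and the lower gene was the ligand Efnb2. The 7 calls are 19.4% of the tested members, against 14.3% of all 15850 tested genes, which is near the background. The 6 higher calls among 36 members stand against a background of 8.33%, and the 1 lower call among 36 against 5.98%. The median log2 fold change was 0.05 over the members and 0.00 over all genes, and 21 of 36 members were above 0, where the background was 50.9%. At an unadjusted p below 0.05 there were 14 of 36 members, against 28.6% of all genes. Changes were small: called members differed by 0.17 to 0.50 on the log2 scale. Of the 7 calls, that of Epha10 alone held in all 8 fits that each left out 1 library, while the others held in 2 to 4 of them. The number of called members was 3 without WT replicate 2, 2 without WT replicate 3, 4 without WT replicate 4, 2 without C3 KO replicate 3 and 1 without C3 KO replicate 4. On the authors' RPKM scale limma called 1 member, Epha10.

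**Figure D1:**
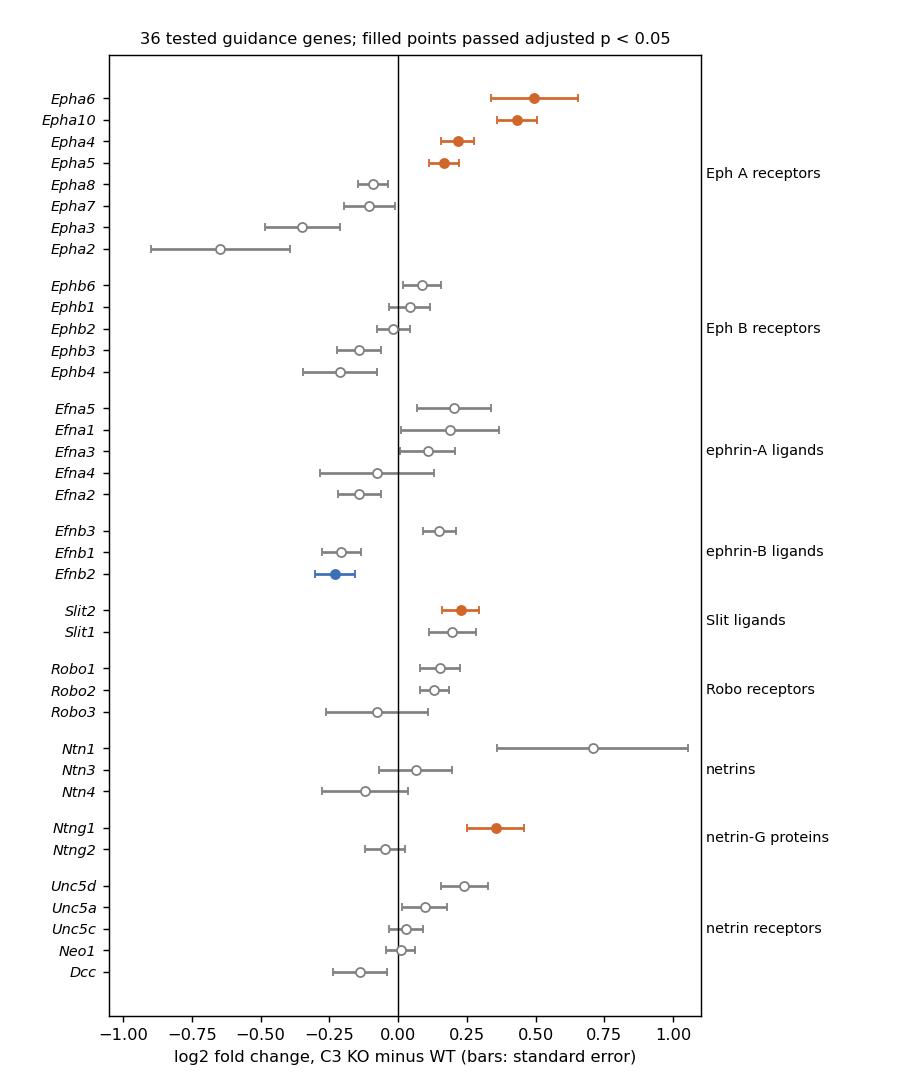
Log2 fold change of the 36 tested guidance genes (horizontal axis, libraries labelled C3 KO minus those labelled WT), with bars for the standard error, grouped by family. Filled points are the 7 genes with an edgeR adjusted p below 0.05, of which only Efnb2 lies below 0.

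Levels between genes were compared per gene length, as RPKM (reads scaled by gene length and library size) from the authors' table. Epha8 had the highest level of the 37, at 47.9 ± 3.72 RPKM (SD, n = 4) under the WT label. It was followed by the netrin-G protein Ntng2 (27.7 RPKM), the ligand Efnb3 (25.0 RPKM), the receptor Neo1 (23.3 RPKM) and Epha5 (20.9 RPKM). The lowest were Epha6 (1.18 RPKM), Ntn1 (0.153 RPKM) and Epha1 (0.127 RPKM). In this order 30 of the 36 neighbouring genes overlapped in their WT-labelled libraries and could not be ranked against each other beyond that spread. The breaks came after Epha8, after Epha5, after Ephb2 (15.3 RPKM), after Efna2 (12.1 RPKM), after Efna5 (1.66 RPKM) and after Epha6.

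**Figure D2:**
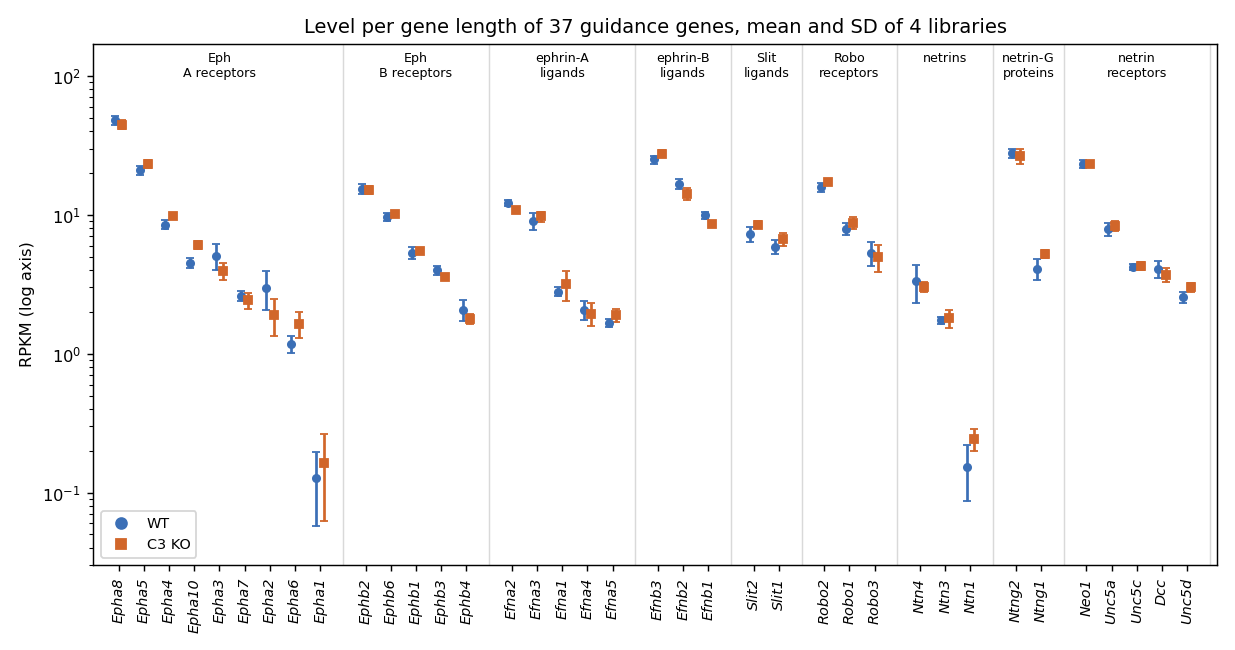
Level per gene length of the 37 guidance genes (RPKM, log axis), with circles for the mean of 4 libraries labelled WT, squares for 4 labelled C3 KO and bars for the SD. Epha8 stands highest at 47.9 RPKM under the WT label, and Ntn1 and Epha1 lie lowest, at 0.153 and 0.127 RPKM.

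Among the Eph A receptors 4 of 8 tested were higher in the libraries labelled C3 KO and none was lower. The shares over all tested genes were 8.33% higher and 5.98% lower. Epha10, which has a kinase domain without catalytic activity, stood at 34.6, 29.2, 35.0 and 31.0 CPM in WT replicates 1 to 4. In C3 KO replicates 1 to 4 it stood at 39.97, 43.8, 46.4 and 45.2 CPM. Every library labelled C3 KO lay above every library labelled WT. The difference was 0.43 ± 0.07 (log2 fold change ± SE, n = 4 and 4, edgeR adjusted p = 0.000376). Lack of overlap was found in 4 of 36 members, all higher, against 17.4% of all genes (9.65% higher and 7.72% lower). The other members without overlap were Epha4, Ntng1 and Efnb3.

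Epha4, a receptor that binds ligands of both classes, had 54.5, 49.7, 52.0 and 58.4 CPM in WT replicates 1 to 4 and 58.8, 62.9, 63.3 and 64.3 CPM in C3 KO replicates 1 to 4. WT replicate 4 came close to C3 KO replicate 1 without crossing it, and the log2 fold change was 0.22 ± 0.06 (SE, edgeR adjusted p = 0.0195). The call of Epha4 was lost without WT replicate 2 or 3 or C3 KO replicate 3 or 4 (adjusted p up to 0.0899). Epha5 and Epha6 are receptors known from the nasal to temporal mapping of ganglion cell axons. Epha5 had 230, 195, 205 and 205 CPM in WT replicates 1 to 4 and 239, 210, 245 and 243 CPM in C3 KO replicates 1 to 4. Its groups overlapped, since C3 KO replicate 2 lay below WT replicate 1. The log2 fold change of Epha5 was 0.17 ± 0.06 (SE), and its adjusted p = 0.0485 lay just inside the threshold of edgeR's test. Among the fits without 1 library the Epha5 call held only without WT replicate 1 or C3 KO replicate 2, and the adjusted p was up to 0.169. Among the 13 other settings it held in 3 and was lost, for example, with DESeq2 (adjusted p = 0.0559). Epha6 had the lowest level of the 4, with 6.00, 4.95, 6.75 and 6.64 CPM in WT-labelled libraries and 9.17, 6.35, 10.8 and 8.07 CPM under the C3 KO label. C3 KO replicate 2 again fell among the libraries labelled WT, and the log2 fold change of Epha6 was 0.50 ± 0.16 (SE, edgeR adjusted p = 0.0373). It was called only without WT replicate 4 or C3 KO replicate 2 among the fits without 1 library (adjusted p 0.01 to 0.163).

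The remaining Eph A receptors had negative values and did not pass. Epha3 had the smallest p of these, with 21.4, 27.4, 29.4 and 35.6 CPM in WT replicates 1 to 4 and 22.4, 24.5, 24.5 and 17.8 CPM in C3 KO replicates 1 to 4. WT replicate 4 was highest and C3 KO replicate 4 lowest, and the groups overlapped (log2 fold change −0.35 ± 0.14 (SE), edgeR adjusted p = 0.11). Epha2, an epithelial and vascular receptor, had its extremes in the same libraries, at 19.98 CPM in WT replicate 4 and 5.85 CPM in C3 KO replicate 4 (log2 fold change −0.65 ± 0.25 (SE), adjusted p = 0.126). Epha8 had 206, 224, 224 and 246 CPM in WT-labelled libraries and 204, 229, 215 and 196 CPM under the C3 KO label, which overlapped (log2 fold change −0.09 ± 0.06 (SE), edgeR adjusted p = 0.297). Epha7 differed by −0.10 ± 0.09 (log2 fold change ± SE).

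Ganglion cell markers moved in the same direction as the 4 called Eph A receptors, while the other 4 tested Eph A receptors were negative. Of 15 markers listed, 11 were called higher and none lower, with a median log2 fold change of 0.28. These calls are 73.3% of the list, against 14.3% of all genes called and 8.33% called higher. The list was chosen with earlier results of these data known. The summed level of the markers was 2841 to 3655 CPM in the libraries labelled WT and 3643 to 4116 CPM in those labelled C3 KO. Nefl, Stmn2 and Nefm held the largest parts of that sum. Their means were 803, 487 and 444 CPM under the WT label, where the mean sum was 3181 CPM. In bulk RNA more cells of a type and more RNA per cell cannot be told apart. Divided by that summed level, Epha5 was at 65.9 ± 4.61 CPM per 1000 CPM of markers in WT-labelled libraries and 59.9 ± 2.12 under the C3 KO label (SD, n = 4). Epha4 was at 17.0 ± 2.38 and 16.0 ± 0.882, Epha10 at 10.2 ± 0.552 and 11.2 ± 0.624, and Epha6 at 1.93 ± 0.297 and 2.19 ± 0.398, on the same scale. The groups overlapped for all 4 receptors on that scale. Epha10 and Epha6 kept their direction, and the lower means of Epha5 and Epha4 under the C3 KO label reverse the direction in CPM. WT replicate 2, the lowest of the 4 in 22 of 36 members, was also lowest in the summed ganglion cell markers. The part of the ganglion cell markers in these results was not tested otherwise.

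**Figure D3:**
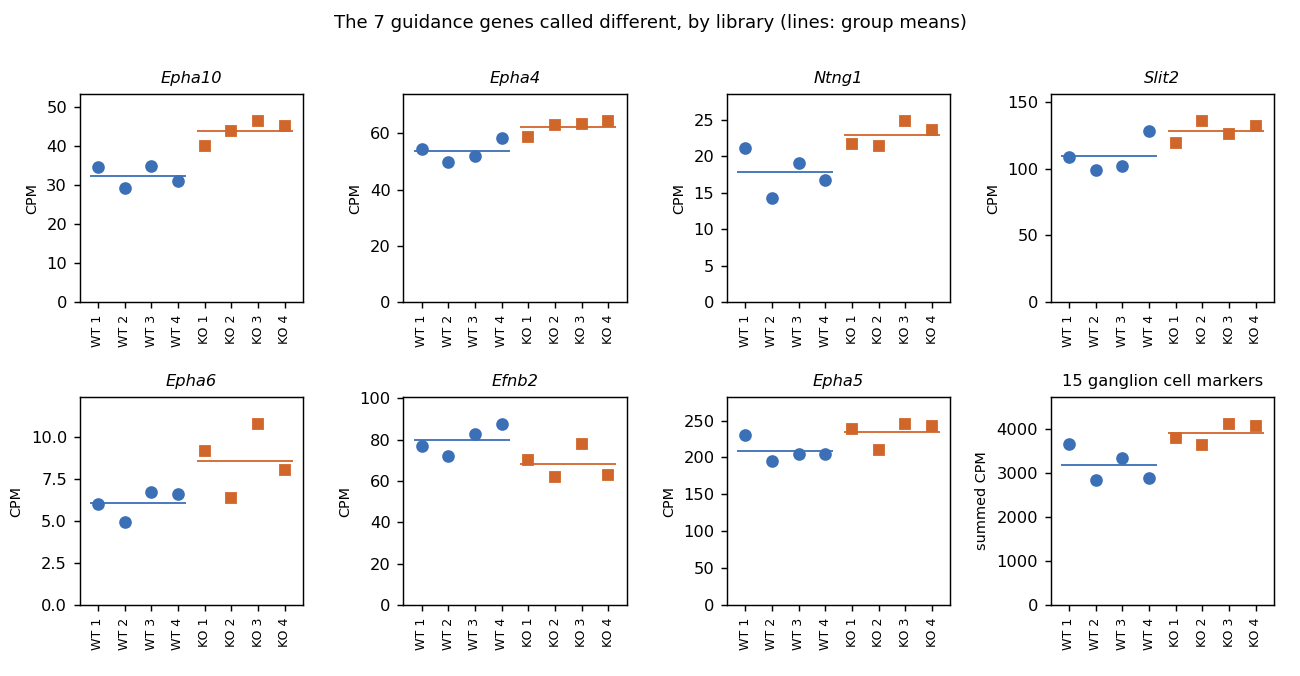
CPM of the 7 called guidance genes in each library, with circles for WT and squares for C3 KO labels and lines for group means, and in the last panel the summed CPM of 15 ganglion cell markers. WT replicate 2 is the lowest library of Epha10 (29.2 CPM), Epha4, Epha5, Epha6, Ntng1, Slit2 and Efnb2 among those labelled WT, and of the marker sum (2841 CPM).

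Promoter sequences are shown for Epha10, the member with the smallest p, Epha6, the called member with the lowest level, and Efnb2, the only member called lower. RefSeq promoters were matched for 32 of 37 members by symbol. Each sequence is the 250 bases before the annotated start in GRCm38.p6, written 5′ to 3′ along the gene. That build differs from the one named in the submitters' notes. Capitals mark the GC box GGGCGG on either strand, the element bound by Sp1-type factors. Epha10 lies at chr4:124881535-124881784 on the plus strand, Epha6 at chr16:60605532-60605781 on the minus strand and Efnb2 at chr8:8661243-8661492 on the minus strand.
Epha10: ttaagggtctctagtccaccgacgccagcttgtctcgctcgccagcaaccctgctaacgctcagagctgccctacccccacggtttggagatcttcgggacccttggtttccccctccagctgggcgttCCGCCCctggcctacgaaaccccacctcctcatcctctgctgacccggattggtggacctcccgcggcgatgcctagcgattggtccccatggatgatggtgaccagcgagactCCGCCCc
Epha6: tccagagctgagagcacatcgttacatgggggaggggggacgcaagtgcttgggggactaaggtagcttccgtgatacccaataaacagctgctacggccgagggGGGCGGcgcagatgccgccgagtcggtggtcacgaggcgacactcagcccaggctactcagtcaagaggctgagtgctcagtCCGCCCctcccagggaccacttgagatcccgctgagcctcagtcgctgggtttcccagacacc
Efnb2: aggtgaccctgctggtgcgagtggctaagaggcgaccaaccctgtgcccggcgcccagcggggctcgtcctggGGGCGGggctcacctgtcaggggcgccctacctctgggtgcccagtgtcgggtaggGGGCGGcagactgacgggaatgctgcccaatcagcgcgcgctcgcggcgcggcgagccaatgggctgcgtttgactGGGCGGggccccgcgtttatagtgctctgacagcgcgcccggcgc
These promoters are rich in G and C, at 63.6%, 62.8% and 72.0%, against a median of 64.4% over the 32 matched members and 52.4% over 32851 RefSeq promoters. A GC box was found in all 7 called members (1 to 3 copies each), in 71.9% of the matched members and in 32.7% of all promoters. The TATA box TATAAA, read on both strands, was found in Slit2 and Efnb2, which are the 2 matched members that hold it, and in 12.4% of all promoters. In Efnb2 the match is on the opposite strand, where the sequence above reads tttata. The E box CANNTG, read on both strands, was found in Epha10, Efnb2 and Epha6 (4 copies in the last), in 43.8% of matched members and in 66.2% of all promoters. A match describes these letters and no binding.

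Of the 5 Eph B receptors none was called. Ephb2, which with Ephb3 maps the dorsal to ventral axis, was the most abundant, with 200, 171, 190 and 208 CPM in WT replicates 1 to 4 and 179, 179, 206 and 196 CPM in C3 KO replicates 1 to 4. These ranges overlapped widely (log2 fold change −0.02 ± 0.06 (SE), edgeR adjusted p = 0.884). Ephb3 had 25.1, 25.1, 22.5 and 27.0 CPM in WT-labelled libraries and 21.5, 23.1, 22.6 and 23.1 CPM under the C3 KO label, also overlapping (−0.14 ± 0.08 (SE), edgeR adjusted p = 0.252). Ephb1, the receptor that turns ventrotemporal axons away from the midline, differed by 0.04 ± 0.08 on the log2 scale. The kinase-inactive Ephb6 differed by 0.09 ± 0.07 and Ephb4, the venous endothelial receptor of ephrin-B2, by −0.21 ± 0.13 (log2 fold change ± SE). On chromosome 4 Ephb2 is the neighbour of the complement gene C1qb, and Epha8 is that of C1qa.

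None of the 5 ephrin-A ligands passed. Efna2 was the most abundant per length, with 26.9, 26.1, 23.8 and 25.7 CPM in WT replicates 1 to 4 and 22.5, 22.5, 24.8 and 23.3 CPM in C3 KO replicates 1 to 4. Only C3 KO replicate 3 reached into the WT-labelled range (log2 fold change −0.14 ± 0.08 (SE), edgeR adjusted p = 0.244). Efna5, a main ligand of topographic mapping, differed by 0.20 ± 0.13 on the log2 scale. It lies 5.37 Mb from C3 on chromosome 17 in the GRCm38 annotation, and its adjusted p was 0.341. Efna1, Efna3 and Efna4, which are neighbours on chromosome 3, differed by 0.19 ± 0.18, 0.11 ± 0.10 and −0.08 ± 0.21 (log2 fold change ± SE).

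Of the 3 ephrin-B ligands 1 was lower under the C3 KO label and none was higher, against 5.98% and 8.33% of all genes. Efnb2, also the arterial ligand of Ephb4, had 77.1, 72.3, 82.7 and 87.5 CPM in WT replicates 1 to 4 and 70.3, 61.9, 77.8 and 62.9 CPM in C3 KO replicates 1 to 4. C3 KO replicate 3 lay above WT replicates 1 and 2, so the groups overlapped. The log2 fold change of Efnb2 was −0.23 ± 0.07 (SE, edgeR adjusted p = 0.0388). Its call was lost without WT replicate 3 or 4 or C3 KO replicate 1, 2 or 4 (adjusted p up to 0.116). Efnb1 had 35.1, 31.0, 34.7 and 35.1 CPM in WT-labelled libraries and 28.7, 28.9, 29.1 and 31.1 CPM under the C3 KO label. C3 KO replicate 4 and WT replicate 2 met at the edge of both ranges. Efnb1 lay just outside the threshold (−0.21 ± 0.07 (SE), edgeR adjusted p = 0.0548). It is the only member on the X chromosome, and Xist differed by label in all 8 libraries. Over the 13 other settings, the fit with Y-linked expression as a covariate among them, the log2 fold change of Efnb1 was −0.22 to −0.19. The part of sex in the difference of Efnb1 was not tested separately. Efnb3 had 82.8, 71.8, 82.3 and 80.4 CPM in WT-labelled libraries and 85.2, 83.7, 96.0 and 87.5 CPM under the C3 KO label. Its libraries did not overlap, yet it did not pass (0.15 ± 0.06 (SE), edgeR adjusted p = 0.0916).

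Several marker lists were set beside Efnb2. Endothelial markers, of which 1 of 10 was called higher and none lower, summed to 361 to 414 CPM in the libraries labelled WT and 332 to 398 CPM in those labelled C3 KO. Kdr held the largest part of that sum, with means of 260 and 232 CPM where the mean sums were 380 and 361 CPM. The endothelial log2 fold changes were positive for 7 markers and negative for 3, Kdr among the latter, with a median of 0.06. Of 10 Mueller glia and progenitor markers 4 were called lower and 1 higher, with a median log2 fold change of −0.38, and their sums overlapped, at 1820 to 2192 and 1717 to 2006 CPM. That overlap rests on the cell cycle gene Ccnd1, the one marker called higher, which made up 35.3% to 44.0% of the sum in WT-labelled libraries and 47.4% to 51.6% in those labelled C3 KO. Without Ccnd1 the sums were 1020 to 1323 CPM and 838 to 977 CPM and did not overlap. Divided by the sum with Ccnd1, Efnb2 was at 41.5 ± 2.19 CPM per 1000 CPM of markers in WT-labelled libraries and 36.1 ± 2.52 under the C3 KO label (SD, n = 4), and the groups did not overlap. Divided by the sum without Ccnd1 it was at 69.3 ± 6.97 and 72.9 ± 7.26, which overlapped and reversed the direction. Divided by the ganglion cell sum it was at 25.4 ± 3.78 and 17.5 ± 1.57, again without overlap. Pigment epithelium and melanocyte markers were called higher in 14 of 18, with summed levels of 121 to 185 CPM against 331 to 361 CPM. Fibroblast and sclera markers were higher in 5 of 9 tested, with sums of 182 to 245 CPM against 324 to 348 CPM. Pdgfra, which is also in the astrocyte list and is a call in both, made up 58.2% to 79.0% of that sum, and without it the sums were 38.2 to 61.8 CPM against 114 to 135 CPM. Red blood cell genes were lower in 5 of 5 tested, at 28.5 to 51.2 CPM against 18.1 to 23.2 CPM. Astrocyte markers were higher in 2 of 5 and microglia markers in 3 of 12, and photoreceptor markers were lower in 2 of 11. No pericyte marker of 8 was called, 1 of 9 amacrine and horizontal cell markers was higher and 1 of 6 ciliary epithelium and lens markers was lower. The part of these cells in the guidance genes was not tested. Over all tested genes 8.33% were called higher and 5.98% lower.

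Among Slits and Robos 1 of 5 was called, against 14.3% of all genes. Slit2 had 109, 99.3, 102 and 128 CPM in WT replicates 1 to 4 and 119, 136, 126 and 132 CPM in C3 KO replicates 1 to 4. WT replicate 4 lay within the C3 KO-labelled range, and the other libraries labelled WT lay below it. The log2 fold change of Slit2 was 0.23 ± 0.07 (SE, edgeR adjusted p = 0.0315), and the call was lost without WT replicate 2 or 3 or C3 KO replicate 2, 3 or 4 (adjusted p up to 0.12). Without WT replicate 4 it was 0.30 (adjusted p = 0.00123). Slit1 had 35.9, 29.3, 34.4 and 38.6 CPM in WT-labelled libraries and 36.8, 36.1, 45.8 and 39.9 CPM under the C3 KO label, which overlapped (0.20 ± 0.09 (SE), edgeR adjusted p = 0.132). Divided by the ganglion cell markers, Slit2 was at 34.9 ± 6.77 CPM per 1000 CPM in WT-labelled libraries and 32.9 ± 2.99 under the C3 KO label (SD, n = 4), the reverse of its direction in CPM.

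Robo2, the main Slit receptor of ganglion cell axons, had 268, 233, 260 and 277 CPM in WT replicates 1 to 4 and 272, 294, 297 and 275 CPM in C3 KO replicates 1 to 4. WT replicate 4 overlapped with the libraries labelled C3 KO (log2 fold change 0.13 ± 0.05 (SE), edgeR adjusted p = 0.0976). Robo1, its neighbour on chromosome 16, differed by 0.15 ± 0.07 on the log2 scale (adjusted p = 0.176 by edgeR). Robo3, a receptor of midline crossing, varied between libraries, at 28.4 to 44.8 CPM in WT-labelled libraries and 24.9 to 42.3 CPM under the C3 KO label. Its log2 fold change was −0.08 ± 0.18 (SE).

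No netrin was called. Ntn4, a netrin of basement membranes, had 9.48, 10.4, 11.7 and 17.6 CPM in WT replicates 1 to 4 and 12.2, 10.3, 10.6 and 11.99 CPM in C3 KO replicates 1 to 4. WT replicate 4 stood above all other libraries (log2 fold change −0.12 ± 0.16 (SE), edgeR adjusted p = 0.664). Ntn1, which guides ganglion cell axons out through the optic disc, was near the detection limit. It had 26, 12, 19 and 6 reads in WT replicates 1 to 4 and 26, 27, 32 and 20 reads in C3 KO replicates 1 to 4. Its log2 fold change of 0.71 ± 0.35 (SE) did not pass (edgeR adjusted p = 0.182). Ntn3 differed by 0.06 ± 0.13 (SE).

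The netrin-G proteins are lipid-anchored relatives of netrins that bind the NGL proteins and not Dcc. Ntng1 had 21.2, 14.3, 19.1 and 16.7 CPM in WT replicates 1 to 4 and 21.6, 21.4, 24.8 and 23.6 CPM in C3 KO replicates 1 to 4. The groups did not overlap, but WT replicate 1 came within 1 CPM of the lowest C3 KO-labelled library. The log2 fold change of Ntng1 was 0.36 ± 0.10 (SE, edgeR adjusted p = 0.0244), and the call was lost without WT replicate 2 or 4 or C3 KO replicate 3 or 4 (adjusted p up to 0.105). Divided by the ganglion cell markers it was at 5.59 ± 0.379 CPM per 1000 CPM of markers and 5.85 ± 0.146 (SD, n = 4), which overlapped. Ntng2 had 104, 118, 101 and 114 CPM in WT-labelled libraries and 107, 123, 98.2 and 94.4 CPM under the C3 KO label, and its groups overlapped (−0.05 ± 0.07 (SE), edgeR adjusted p = 0.721). The genes of these partner proteins were in the list of netrin partners, and Lrrc4c was named after its value was seen. Lrrc4c, which encodes the netrin-G1 ligand NGL-1, was higher by 0.26 ± 0.07 (log2 fold change ± SE, edgeR adjusted p = 0.0189), a call lost without WT replicate 2 or 3 or C3 KO replicate 3 or 4 (adjusted p up to 0.0749). Lrrc4, which encodes the netrin-G2 ligand NGL-2, was lower by −0.29 ± 0.07 (SE, adjusted p = 0.00617).

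The netrin receptors had no call among 5. Neo1, which also binds the repulsive guidance molecules, had 170, 161, 168 and 186 CPM in WT replicates 1 to 4 and 169, 183, 173 and 162 CPM in C3 KO replicates 1 to 4. The 2 ranges nearly coincided (log2 fold change 0.01 ± 0.05 (SE), edgeR adjusted p = 0.932). Unc5d had 25.0, 23.1, 22.6 and 20.1 CPM in WT-labelled libraries and 24.1, 28.4, 26.6 and 28.2 CPM under the C3 KO label. Only WT replicate 1 reached into the C3 KO-labelled range, and Unc5d lay just outside the threshold (0.24 ± 0.08 (SE), edgeR adjusted p = 0.0594). Dcc differed by −0.14 ± 0.10, Unc5a by 0.10 ± 0.08 and Unc5c by 0.03 ± 0.06 (log2 fold change ± SE).

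Genes that act with these families were read from 4 fixed lists, chosen with earlier results of these data known. Of 26 ephrin and Eph signalling partners 2 were higher and 1 lower (11.5% called, against 14.3% of all genes), with a median log2 fold change of −0.05. The lower gene was Ptpro, a phosphatase that removes phosphate from Eph receptors, at 164 ± 12.2 and 128 ± 8.33 CPM (SD, n = 4, edgeR adjusted p = 0.000204). The higher genes were Vav3, a signalling protein of growth cone collapse (0.31 ± 0.08 (SE)), and Grip1, an adaptor that binds ephrin-B tails (0.18 ± 0.05 (SE)). Grip1 lost its call without WT replicate 2 or 4 or C3 KO replicate 3 or 4 (adjusted p up to 0.129), and Ptpro and Vav3 kept theirs without any 1 library. Vav3 and Ntng1 are neighbours on chromosome 3. Of 15 Slit and Robo partners 4 were higher (26.7%, against 8.33% of all genes) and none lower, with a median of 0.07. These were Myo9b and Srgap3, which act below Robo, the kinase Pak1 and the Slit-binding proteoglycan Gpc1, with log2 fold changes of 0.22, 0.18, 0.23 and 0.24. Of these Myo9b kept its call without any 1 library. Pak1 lost it without WT replicate 2 (adjusted p = 0.0523), Srgap3 without that library or C3 KO replicate 1, 3 or 4 (up to 0.0854) and Gpc1 without WT replicate 1, 2 or 3 or C3 KO replicate 3 or 4 (up to 0.149).

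Of 19 tested netrin partners 6 were higher and 2 lower (42.1% called, against 14.3% of all genes), with a median log2 fold change of 0.06. Flrt2, an adhesion protein that binds Unc5d, was at 58.1 ± 2.86 and 69.4 ± 1.103 CPM by group (SD, n = 4 libraries, edgeR adjusted p = 0.00334). Its call held in all 21 other fits. Ablim1, an actin-binding protein, and Trim67, a ligase that interacts with Dcc, were higher by 0.33 ± 0.08 and 0.24 ± 0.06 (log2 fold change ± SE). Trim67 lost its call without WT replicate 2 or 4 or C3 KO replicate 3 or 4 (adjusted p up to 0.0644). Named after their values were seen, Dscam (0.20), the tubulin Tubb3 (0.16) and Dock1 (−0.37) complete the called genes of that list, next to Lrrc4 and Lrrc4c. The calls of Dscam, Tubb3 and Dock1 were each lost without WT replicate 2 or 4 or C3 KO replicate 4, and in part without others (adjusted p up to 0.121, 0.184 and 0.101).

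Factors that pattern the retina or decide where its axons cross had 9 calls among 19 tested, or 47.4%, against 14.3% of all genes. Of these 7 were lower, against 5.98% of all genes, and 2 were higher, against 8.33%, with a median log2 fold change of −0.16. The list was chosen with earlier results of these data known, so its share of calls is no independent support for a change in these factors. The Mueller glia and progenitor markers moved the same way as the lower genes, with 9 of 10 negative, a median of −0.38 and 4 called lower, and their part in these calls was not tested. Hmx1, a homeobox factor of the developing eye, had 32.0, 37.5, 38.9 and 39.2 CPM in WT replicates 1 to 4 and 27.5, 23.0, 29.1 and 25.5 CPM in C3 KO replicates 1 to 4. Its groups did not overlap (−0.49 ± 0.08 (SE), edgeR adjusted p = 0.0004) and the call held in all 21 other fits. Sfrp1, a secreted Wnt inhibitor, was higher by 0.48 ± 0.10 (log2 fold change ± SE). Chrdl1, a BMP antagonist of the ventral retina, was lower by −0.59 ± 0.15 (log2 fold change ± SE).

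Foxd1, a factor of the temporal retina, had 2.10, 2.39, 4.09 and 5.49 CPM in WT-labelled libraries and 1.48, 1.67, 1.35 and 1.93 CPM under the C3 KO label. The libraries labelled WT spread widely and lay above those labelled C3 KO (−1.12 ± 0.28 (SE), edgeR adjusted p = 0.00982), and without WT replicate 4 the call was lost (−0.84, adjusted p = 0.0541). The other 5 called genes are named after their values were seen. Aldh1a1, which makes retinoic acid in the dorsal retina, stood at 70.6 ± 3.61 and 43.6 ± 10.4 CPM (SD, n = 4), and Cyp26a1, which degrades retinoic acid, at 7.84 ± 2.16 and 4.68 ± 1.09 CPM. Zic2, which directs uncrossed axons, stood at 30.5 ± 2.76 and 24.0 ± 3.73 CPM (SD, n = 4). The receptor Bmpr1b, a neighbour of Unc5c on chromosome 3, was lower by −0.54 ± 0.15, and the dorsal signal Bmp4, near 1 CPM under the WT label, was higher by 1.05 ± 0.29 (log2 fold change ± SE). Aldh1a1 lost its call without WT replicate 2 or 4 or C3 KO replicate 3 or 4 (adjusted p up to 0.0712), and Zic2 without WT replicate 3 or 4 or C3 KO replicate 3 or 4 (up to 0.087). Cyp26a1 lost it without WT replicate 4 (0.0574) and Bmp4 without C3 KO replicate 4 (0.0567).

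**Figure D4:**
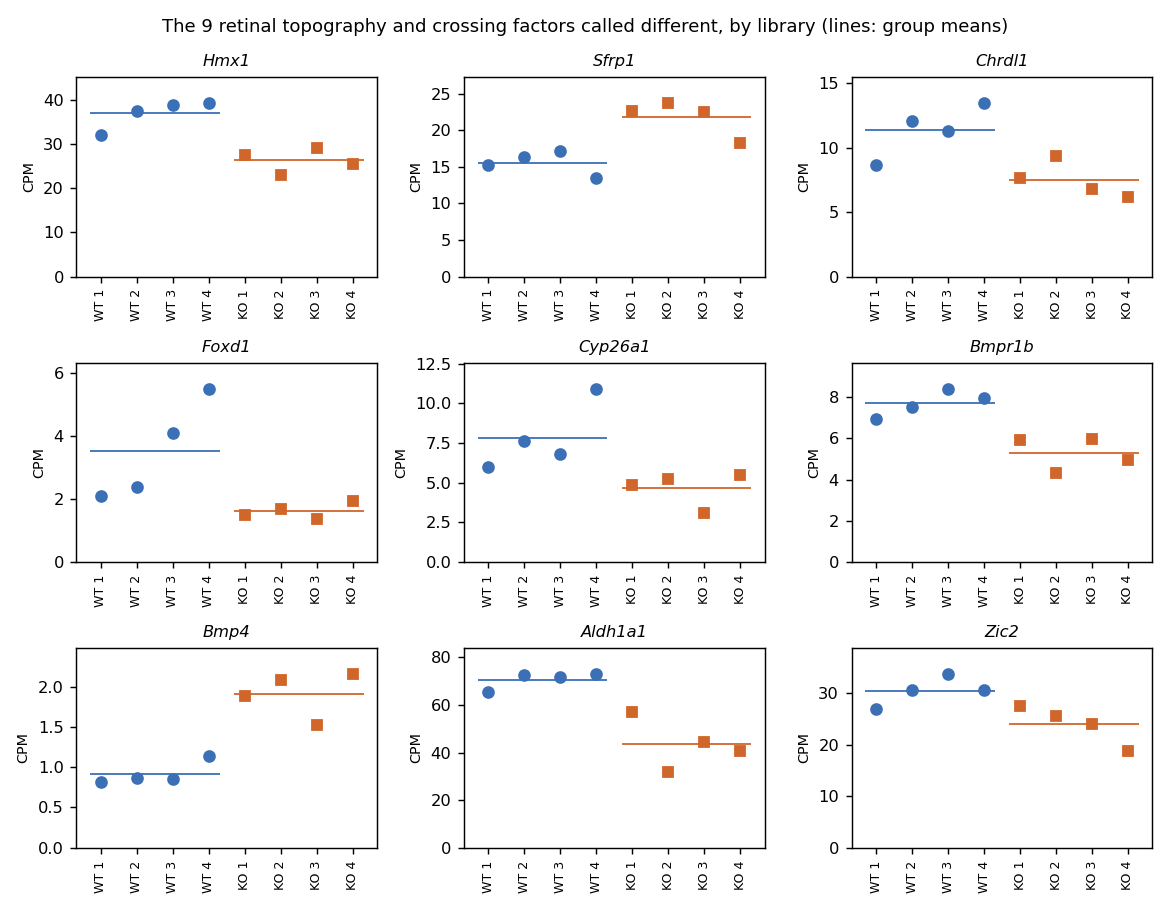
CPM in each library of the 9 called genes of the list of retinal topography and crossing factors, with circles for WT and squares for C3 KO labels and lines for group means. Hmx1 lies at 32.0 to 39.2 CPM in WT-labelled libraries and 23.0 to 29.1 CPM under the C3 KO label, and Sfrp1 and Bmp4 are the 2 genes that are higher under the C3 KO label.

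With Y-linked expression as a covariate edgeR called none of the 36 members, 9 of which had an unadjusted p below 0.05, and 400 genes in all. The fold changes of the 7 called members kept their sign in the edgeR fit with the covariate, at 0.40 for Epha10, 0.27 for Epha4, 0.25 for Epha5, 0.39 for Epha6, 0.31 for Slit2, 0.40 for Ntng1 and −0.28 for Efnb2. The covariate correlated with the labels at 0.746 over the 8 libraries, so the 2 could be told apart only in part. Epha10 had an adjusted p = 0.0635 with the covariate. DESeq2, run without it, called 8 members.

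**Figure D5:**
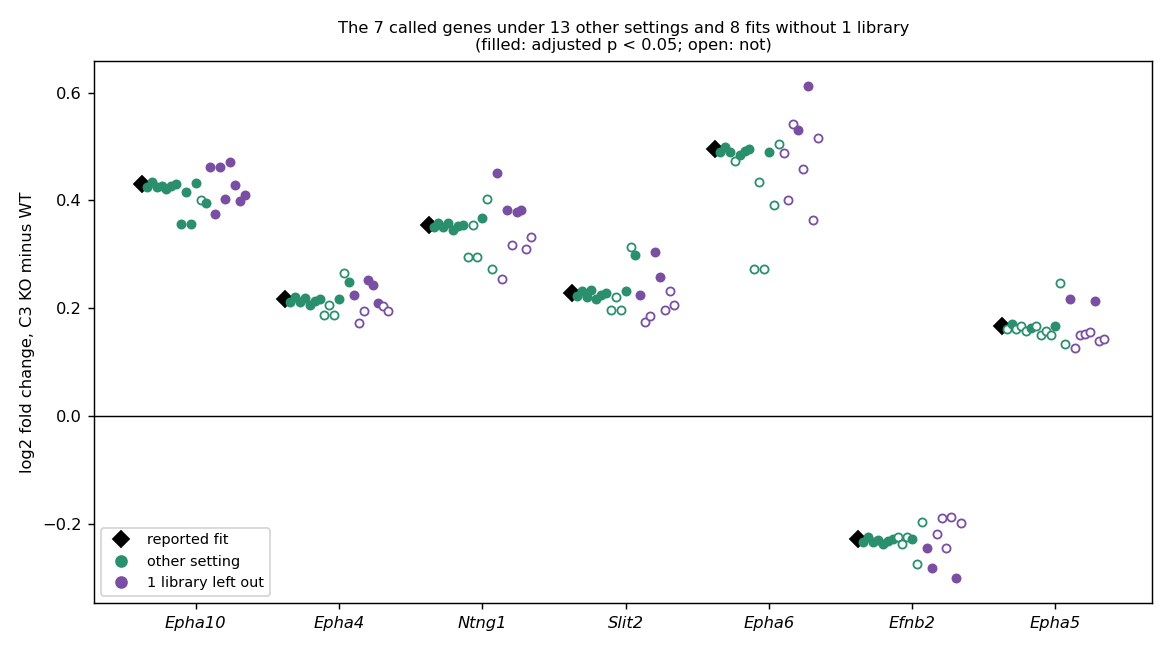
Log2 fold change of the 7 called guidance genes in the reported fit (diamonds), under 13 other settings and in 8 fits without 1 library (circles), filled where the adjusted p was below 0.05. Every value keeps its sign, and Epha10 is filled in all but the fit with Y-linked expression as a covariate (0.40).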

How the data were processed

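Libraries were made from poly(A) RNA with a directional kit, per the labels' protocols. Values come from 2 tables of the series. The first holds whole-number read counts per gene as deposited by the authors, made with STAR and HTSeq against mm9 (NCBIM37) per the submitters' processing notes, with versions, roles and strand setting not given in the sources used here. Each of its 16109 genes has at least 15 reads in at least 1 library. The second holds the authors' deposited log2 RPKM values, used for levels per gene length and as an alternative. Counts were tested in R 4.3.3 with edgeR 4.0.16 (TMM scaling, filterByExpr, robust quasi-likelihood F test, Benjamini-Hochberg over 15850 genes), C3 KO against WT labels without covariates. The SE is the log2 fold change over the root of F. The procedure was tested on simulated counts with known fold changes. How often it recovers changes as small as those of the called members is not given here.

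Members and lists were chosen with earlier results of these data known. Every member may be named. Called members, the most abundant of each family and the uncalled one with the smallest p are given by library, and of each partner list the 4 called genes with the smallest p. Exons of Epha1, Epha10, Epha6, Ephb1, Ephb4, Efna3, Efna4, Ntn3, Unc5a and Unc5c overlap opposite-strand genes in the GENCODE annotation of GRCm38, so their reads may not be separable. Ntn3 and Ntng2 share exon bases with a gene on the same strand. Alternatives were other scalings and filters, a non-robust dispersion, DESeq2 1.42.0, limma 3.58.1 on counts and on log2(RPKM + 1) or log2(RPKM + 0.1), the replicate number, Y-linked expression or 1 surrogate variable (sva 3.50.0) as a term, and leaving out each library. Levels per summed marker genes were added after seeing the data. No batch is named in the labels, and no libraries agreed within sampling noise (chi-square per degree of freedom at least 3.72).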

Additional observations from a re-analysis of the deposited data

Results flagged for a closer look

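In each group of 4 libraries, a library was looked for whose gap to the nearest other, as a share of the group's range, exceeded Dixon's critical value, over 72 groups (36 members under 2 labels). Chance alone gives this in about 1 of 20 groups. It was met 4 times, each time by a low library. In WT replicate 2, Efnb1 stood at 31.0 CPM against 34.7 to 35.1 CPM in the other libraries labelled WT. The netrin receptors Unc5c and Unc5a stood at 47.9 CPM (others 52.3 to 52.4 CPM) and 27.7 CPM (others 33.8 to 34.6 CPM) in the same library. In C3 KO replicate 2, Robo1 stood at 71.9 CPM against 86.7 to 89.2 CPM in the other libraries labelled C3 KO.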

How the results depend on the processing

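The 7 called members kept their direction in all 147 fits, which do not include levels divided by marker sums, and kept the call in 82. Besides the fits without 1 library, the number of called members moved by over 1.5 times in 5 settings: it was 1 on log2(RPKM + 1), on log2(RPKM + 0.1) and on log2(RPKM + 1) without a filter, 0 with the Y-linked covariate, where 9 members had an unadjusted p below 0.05 by edgeR, and 3 with 1 surrogate variable. In the same settings 1509, 1502, 1451, 400 and 1239 of all genes were called. Leaving out 1 library gave 1 to 8 called members and 1305 to 2543 called genes. With the replicate number as a block 7 members and 2400 genes were called, so the replicate block changed no count by over 1.5 times. The correlation of same-numbered libraries' deviations was −0.17, 0.25, 0.05 and −0.14, against −0.30 to 0.21 for libraries with different numbers. With 4 libraries per group this check cannot decide whether the numbers pair the samples.

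Of the 29 uncalled members 5 were called in some fit (Efnb1, Epha2, Epha3, Robo1 and Unc5d). Direction changed for 9 uncalled members close to 0. Ephb2 was 0.031 with the Y-linked covariate and 0.0049 with the surrogate variable, and −0.078 to 0.014 without 1 library. Efna4 was 0.011 and 0.048 in those settings (−0.15 to 0.041 without 1 library), and Ntng2 0.0024 with the former. With the surrogate variable Robo3 was 0.089 (−0.21 to 0.045 without 1 library) and Ntn4 0.096 (−0.23 to 0.092). Neo1 was −0.00076 without a filter on counts, −0.00052 on the RPKM scales, and −0.028 to 0.044 without 1 library. The leave-out ranges of Ephb1, Ntn3 and Unc5c were −0.023 to 0.092, −0.016 to 0.13 and −0.011 to 0.059. Per summed ganglion cell markers, chosen after seeing the data, Epha5 was −0.14, Epha4 −0.094 and Slit2 −0.086. Per summed Mueller glia and progenitor markers other than Ccnd1, added likewise, Efnb2 was 0.072. The cause of these changes was not tested. Depth limits Ntn1 and Epha1, the members with the fewest reads.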
